A study of Mus musculus with 4 samples.

Results

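Genes of fatty acid oxidation and targets of the nuclear receptor PPAR alpha were examined in the mouse colon, in cells of the mucosal surface and of the crypts, with and without dietary heme. The set was a list of 44 genes, chosen by name with earlier results of these data known. Each gene was taken as the mean of the probe sets that carry its symbol alone. Of the 44 genes, 41 were measured, among 19938 genes on the array. Acsl1, Acsl3 and Ucp2 had no probe set that carried their symbol alone and are not analysed here. Male C57BL/6 mice aged 11 weeks ate a high fat, low calcium diet with 40% of energy as fat for 14 days, either with 0.5 µmol/g heme, the iron porphyrin that colours red meat, or without it. Laser capture microdissection, which collects chosen cells from a tissue section under the microscope, separated surface from crypt cells in frozen colon. The groups were heme surface and heme crypt, each 1 RNA pool of 3 mice, and control surface and control crypt, each 1 RNA pool of 4 mice. Within a diet, both pools derive from the same animals, so they are not independent.

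Mitochondrial beta-oxidation shortens fatty acids by removing acetyl-CoA. Long-chain fatty acids are taken up, bound to carrier proteins, activated to acyl-CoA and carried into the mitochondrion by the carnitine shuttle, and a cycle of dehydrogenases, hydratases and thiolases then passes electrons to the respiratory chain. PPAR alpha, which is activated by fatty acids, pairs with the retinoid X receptor and raises transcription of many genes of this route, of peroxisomal oxidation and of lipid droplets. Colonocytes are known to draw much of their energy from the oxidation of fatty acids, above all of short-chain ones made by bacteria.

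Each group is 1 array of pooled RNA, so no comparison has a replicate check, no test was run, and the spread between mice is unknown. Values are log2 expression values, and a difference of 1 is 2-fold. A gene was called higher or lower when it differed at least 2-fold and reached 5.75, the median of all gene values (the floor), on at least 1 array of the comparison. All 41 measured genes reached the floor on at least 1 array, and 35 did so on all 4. In RNA from many cells, fewer cells of a type and less RNA per cell cannot be told apart. The pools fitted their labels by defining markers, but these lists were chosen with earlier results of these data known and are no independent check. Of 15 surface colonocyte markers, 14 were higher in surface cells when set against crypt cells on heme, as were 13 of the 14 at or above the floor on the control diet. Of the crypt base and progenitor markers at or above the floor, 10 of 12 were lower in surface cells on heme and 12 of 13 on the control diet. Stromal markers were also present. Of 12, 10 reached the floor in heme surface, 11 in control surface, 11 in heme crypt and 12 in control crypt cells.

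**Figure D1:**
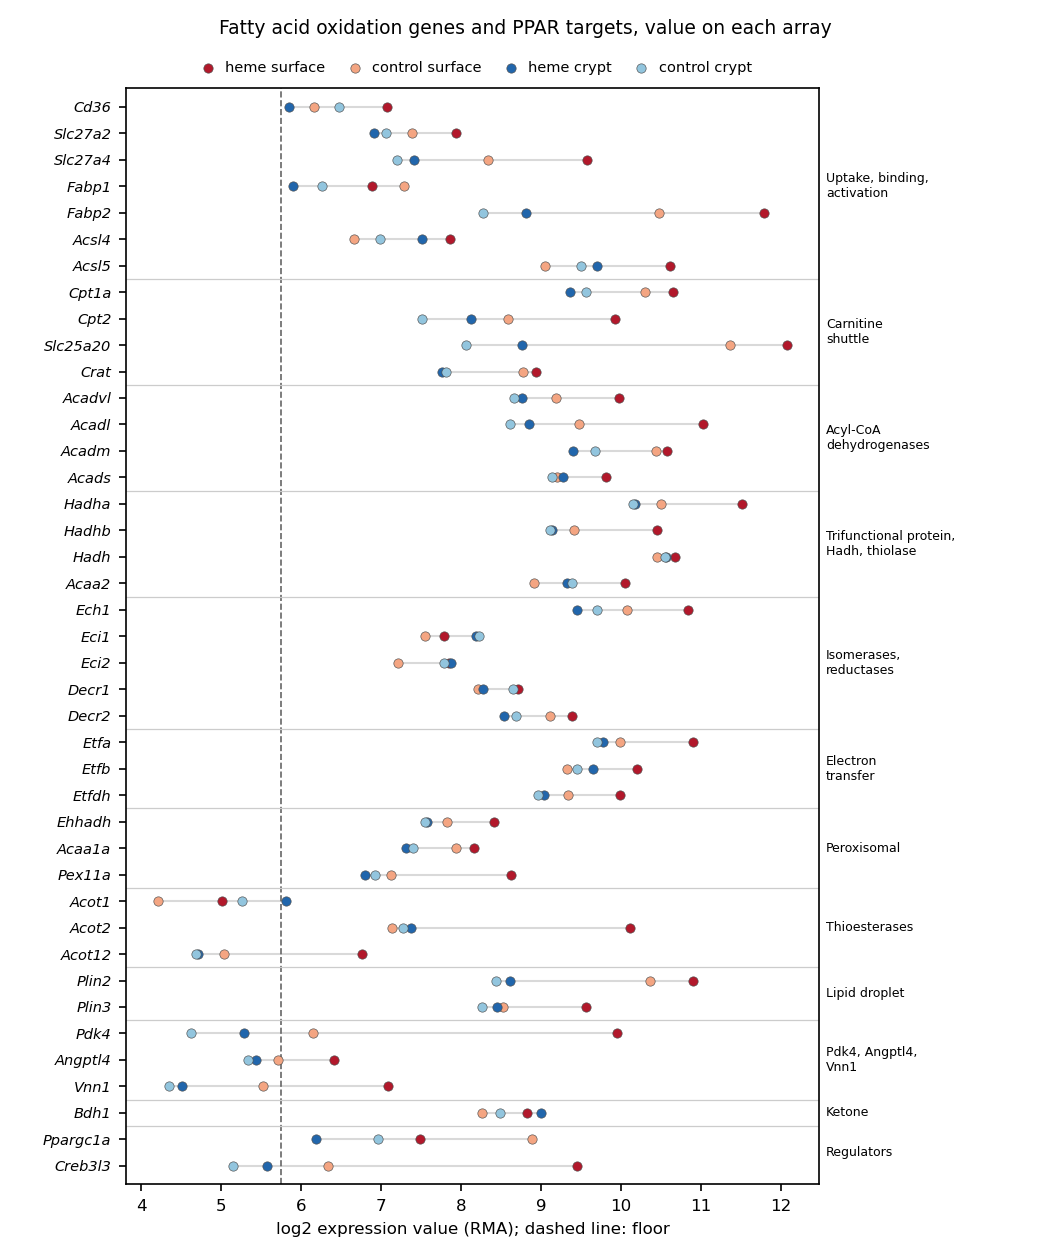
Log2 expression value of the 41 measured genes (rows, grouped by role) on the heme surface, control surface, heme crypt and control crypt arrays, 1 point per array, with the floor of 5.75 as a dashed line. Levels of different genes are not comparable, since they come from different probes. The heme surface point is the rightmost for Pdk4, Creb3l3 and Acot2, at 9.95, 9.45 and 10.11.

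In surface cells, most of the set lay higher on heme. Of the 40 genes at or above the floor there, 16 were higher and 1 was lower, whereas 3.62% of all 10282 genes tested were higher and 2.01% were lower. The median difference was 0.77, against -0.02 over all genes tested, and 38 of the 40 lay above 0. The list was chosen with earlier results of these data known, so these values describe the set and are no test of it. Acot12, Angptl4 and Vnn1 reached the floor only on the heme array, and 14 of the 37 genes at or above it on both arrays were higher. Over all genes at or above the floor on both arrays, 3.03% were higher. The leading genes were Pdk4, Creb3l3 and Acot2, which ranked 13, 24 and 26 from the top of all genes tested. Fabp1 and Ppargc1a were the members with lower values on heme. Surface colonocyte markers had a median heme difference of 0.14 in the same cells, with 2 of 15 higher. Among markers at or above the floor, the median was -0.44 for stromal cells (9 of 11 below 0), -0.39 for crypt base and progenitor cells (7 of 9 below 0), 0.32 for macrophages (8 of 8 above 0), 0.04 for endothelial cells and -0.10 for epithelial cells in general. None of the markers on these 5 lists reached 2-fold, and their part in the surface result was not tested. With each array centred on its median over 53 ribosomal protein genes, the all-gene median in surface cells became 0.15 and that of the set 0.94. Centring shifts every gene alike and so cannot change the gap of 0.79 between them, which was 0.73 with cyclic loess.

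**Figure D2:**
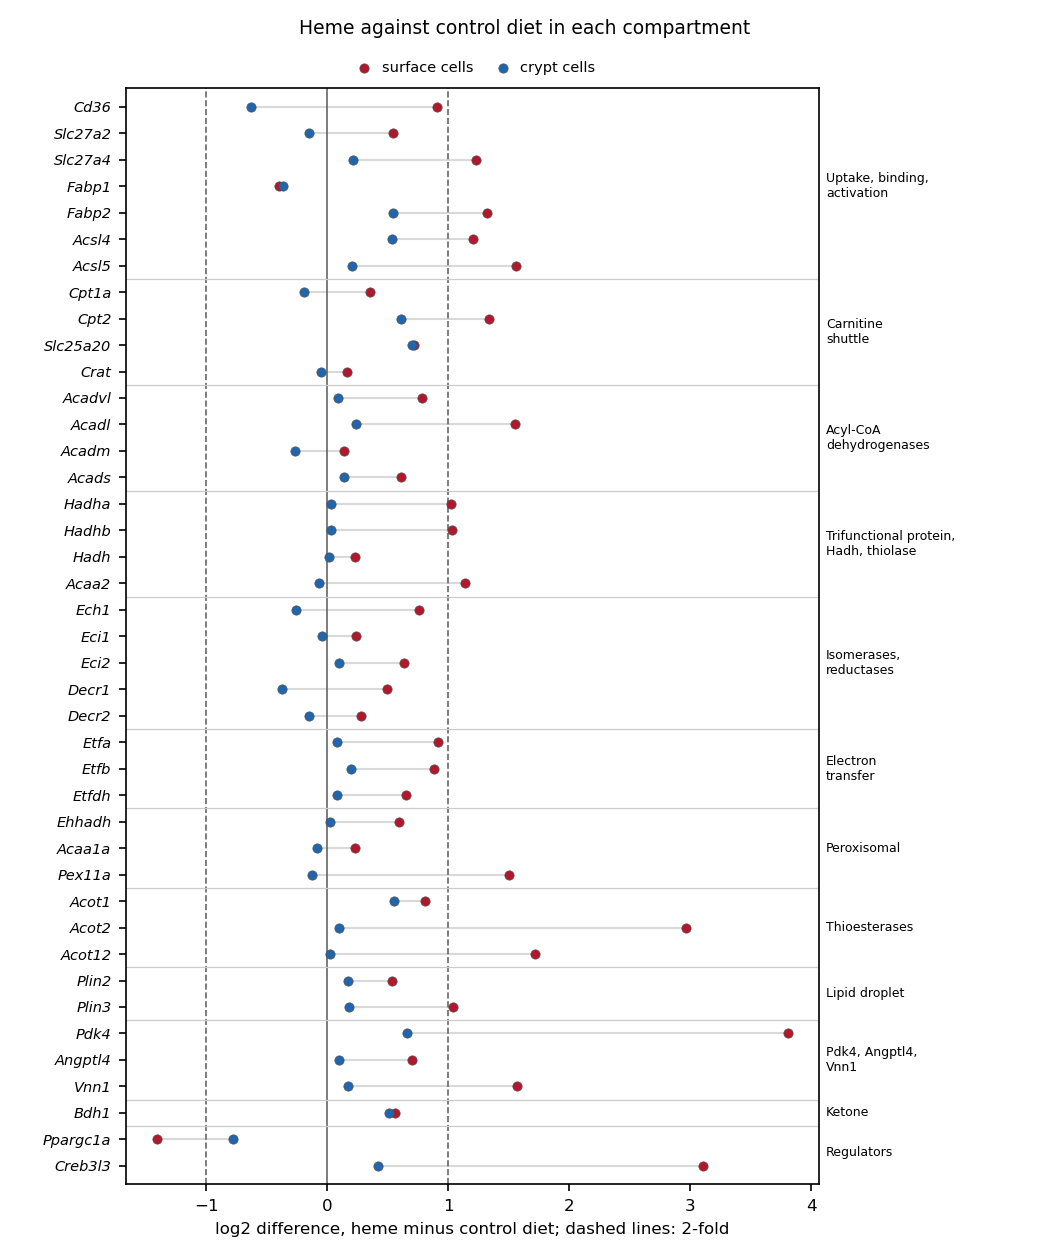
Log2 difference between heme and control diet for each measured gene (rows, grouped by role) in surface cells and in crypt cells, 1 difference of arrays per point, with 2-fold marked by dashed lines. In surface cells 38 of the 40 genes at or above the floor lie above 0, and in crypt cells all points lie between -0.78 and 0.70.

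Among genes of fatty acid uptake, binding and activation, 4 of 7 measured genes were higher in heme surface cells, beside 3.62% of all genes tested. With so few genes per role, this count and those of the other roles do not rank the roles. Slc27a4, a fatty acid transport protein of the enterocyte with acyl-CoA synthetase activity, had 9.57 in heme surface cells and 8.34 in control surface cells, against 7.42 in heme crypt and 7.20 in control crypt cells. Fabp2, the intestinal fatty acid binding protein, had 11.79 in heme surface and 10.47 in control surface cells, and 8.81 in heme crypt and 8.27 in control crypt cells. Both genes were highest on the heme surface array and lay above both crypt arrays on the control surface array too, with heme differences in surface cells of 1.23 and 1.32. Acsl5, an acyl-CoA synthetase of the intestinal epithelium, had 10.61 in heme surface and 9.05 in control surface cells, and 9.70 in heme crypt and 9.49 in control crypt cells. Its lowest value was that of the control surface array, and the heme difference in surface cells was 1.56 (2.95-fold). Acsl4, a synthetase that favours arachidonic acid, differed by 1.21 and fell just short of 2-fold when 32 was added to the unlogged values, at 0.997. Slc27a2, a very long-chain acyl-CoA synthetase and transporter, differed by 0.54.

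Cd36, a scavenger receptor and fatty acid translocase, had 7.07 in heme surface and 6.16 in control surface cells, and 5.84 in heme crypt and 6.47 in control crypt cells. Its highest value was that of heme surface cells and its lowest that of heme crypt cells, with heme differences of 0.91 in surface and -0.63 in crypt cells. The surface difference passed 2-fold under each of 3 other scalings of the arrays, at 1.02 with all genes centred, 1.07 with ribosomal protein genes centred and 1.01 with cyclic loess. Macrophages, endothelial cells and adipocytes also express Cd36. The median level of 10 macrophage markers was 6.51 in heme surface and 6.15 in control surface cells, and 5.93 in heme crypt and 6.30 in control crypt cells, which is the same order as for Cd36. Of the macrophage markers at or above the floor, 0 of 8 were higher or lower in surface cells (median difference 0.32) and 1 of 8 was lower in crypt cells (median -0.63). The median of 10 endothelial markers was 7.09 in heme surface and 7.15 in control surface cells, and 6.03 in heme crypt and 6.68 in control crypt cells. The part of these cells in the Cd36 values was not tested.

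Fabp1, the liver-type fatty acid binding protein, went the other way. It had 6.89 in heme surface and 7.29 in control surface cells, and 5.90 in heme crypt and 6.27 in control crypt cells. Heme pools lay below control pools in both compartments, by -0.40 and -0.36, and neither difference reached 2-fold. Fabp1 and Fabp2 encode carriers of the same family and differed by -0.40 and 1.32 in surface cells.

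The promoters were searched for the hexamer AGGTCA, the core of nuclear receptor binding sites, and for a pair of such hexamers 1 base apart, the arrangement to which PPAR and the retinoid X receptor bind. The search covered both strands of RefSeq promoter windows of the build GRCm38.p6, from 250 bases before to 50 bases after the start. Of the 44 genes, 39 had a promoter in the table, with 42 promoters. AGGTCA occurred in 9 of the 42, or 21.4%, and in 16.3% of all 32851 promoters. The exact pair AGGTCANAGGTCA occurred in 0 of 42 member promoters and in 0.0396% of all promoters. With any base at position 4 of each hexamer (AGGNCANAGGNCA), the pair occurred in 1 member promoter, that of Fabp1, and in 0.381% of all promoters; each such pair that keeps T at these positions also counts as AGGTCA. The 250 bases before the start of Fabp1, which was not higher on heme, are printed first, at chr6:71199629-71199878 on the plus strand, with the pair in capitals as it reads from the opposite strand. The stretches of Pdk4, at chr6:5496279-5496528 on the minus strand, and of Acot2, at chr12:83987611-83987860 on the plus strand, follow because these genes were among the leading 3 of the set. Neither holds AGGTCA or a pair in its 300-base window.
Fabp1: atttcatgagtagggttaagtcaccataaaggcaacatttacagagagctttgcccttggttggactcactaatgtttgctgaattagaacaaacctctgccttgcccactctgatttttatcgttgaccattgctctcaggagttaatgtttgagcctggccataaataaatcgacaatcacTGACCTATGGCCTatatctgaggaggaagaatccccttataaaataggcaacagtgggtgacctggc
Pdk4: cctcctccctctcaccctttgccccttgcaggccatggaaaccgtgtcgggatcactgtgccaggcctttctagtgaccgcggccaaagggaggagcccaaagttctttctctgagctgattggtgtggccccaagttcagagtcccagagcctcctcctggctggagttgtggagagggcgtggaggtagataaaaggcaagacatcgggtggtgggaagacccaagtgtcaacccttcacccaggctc
Acot2: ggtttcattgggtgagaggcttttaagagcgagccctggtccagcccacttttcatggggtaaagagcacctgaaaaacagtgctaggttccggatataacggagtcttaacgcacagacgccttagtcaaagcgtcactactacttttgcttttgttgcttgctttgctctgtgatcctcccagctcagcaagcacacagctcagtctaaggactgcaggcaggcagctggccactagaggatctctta

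AGGTCA was found, by itself or within the pair, in the windows of Slc27a2, Acadm, Plin2, Cd36, Fabp1, Creb3l3, Acadvl, Acot12 and Cpt1a. Fabp1 held it within the pair, at bases 67 to 62 before the start, and outside it at bases 9 to 4. In surface cells the heme differences of the genes named ran from -0.40 for Fabp1 to 3.11 for Creb3l3. Stretches of 30 bases around the hexamer are shown for the 2 of these genes that were higher in heme surface cells, with the match in capitals. That of Creb3l3 lies at chr10:81092776-81092805 on the minus strand, and that of Acot12, where the hexamer reads from the opposite strand, at chr13:91741399-91741428 on the plus strand.
Creb3l3: taagtaggggagAGGTCAcacagacccgac
Acot12: ctcgtaggacccTGACCTctcacctcctaa

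In the carnitine shuttle, 1 of 4 genes was higher in heme surface cells, beside 3.62% of all genes tested. Cpt2, the inner membrane carnitine palmitoyltransferase that reforms acyl-CoA in the matrix, had 9.93 in heme surface and 8.59 in control surface cells, and 8.12 in heme crypt and 7.51 in control crypt cells. Its value was higher on the heme array in both compartments, by 1.34 in surface and 0.61 in crypt cells. Cpt1a, the outer membrane enzyme that commits long-chain fatty acids to the mitochondrion, had 10.66 in heme surface and 10.30 in control surface cells, and 9.37 in heme crypt and 9.56 in control crypt cells, with differences of 0.35 and -0.19. Slc25a20, the carrier that exchanges acylcarnitine for carnitine, had 12.08 in heme surface and 11.36 in control surface cells, and 8.76 in heme crypt and 8.06 in control crypt cells. Both surface arrays lay far above both crypt arrays for Slc25a20, and the heme differences were alike, at 0.72 and 0.70. Crat, carnitine acetyltransferase, differed by 0.16 and -0.05.

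The acyl-CoA dehydrogenases, which open each round of beta-oxidation, differ in the chain length they accept. Acadl, the long-chain enzyme, had 11.03 in heme surface and 9.48 in control surface cells, and 8.85 in heme crypt and 8.61 in control crypt cells. It was the 1 gene of the 4 that was higher in heme surface cells, beside 3.62% of all genes tested. Acadl differed by 1.55 (2.93-fold) in surface cells and by 0.24 in crypt cells. Acadvl, the very long-chain enzyme, differed by 0.79 in surface cells, Acads, the short-chain enzyme, by 0.61 and Acadm, the medium-chain enzyme, by 0.14. Acadm had 10.57 in heme surface and 10.43 in control surface cells, and 9.40 in heme crypt and 9.67 in control crypt cells.

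Of the next steps of the cycle, 3 of 4 genes were higher in heme surface cells, beside 3.62% of all genes tested. Hadha and Hadhb encode the subunits of the mitochondrial trifunctional protein, which handles long-chain intermediates. Hadha had 11.52 in heme surface and 10.49 in control surface cells, and 10.17 in heme crypt and 10.15 in control crypt cells. Hadhb had 10.45 in heme surface and 9.42 in control surface cells, and 9.14 in heme crypt and 9.11 in control crypt cells. For both subunits the heme surface value stood apart from the other 3, with differences in surface cells of 1.02 and 1.03 and in crypt cells of 0.03 and 0.03. These surface differences lie at the edge of 2-fold and were 0.87 and 0.93 with cyclic loess. The 2 probe sets of Hadhb differed by 1.01 and 1.06.

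Acaa2, the mitochondrial thiolase that releases acetyl-CoA, had 10.05 in heme surface and 8.91 in control surface cells, and 9.32 in heme crypt and 9.39 in control crypt cells. Its lowest value was that of the control surface array, and the differences were 1.14 in surface and -0.07 in crypt cells. Hadh, the dehydrogenase for medium- and short-chain intermediates, differed by 0.23 and 0.01.

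None of the 5 isomerases and reductases that prepare unsaturated fatty acids for the cycle reached 2-fold in heme surface cells, and all 5 lay above 0. Ech1, a dienoyl-CoA isomerase, differed by 0.76, Eci2, an enoyl-CoA isomerase, by 0.64, and Decr1, the mitochondrial dienoyl-CoA reductase, by 0.50. The peroxisomal reductase Decr2 differed by 0.28 and the mitochondrial isomerase Eci1 by 0.24. In crypt cells the 5 genes ranged from -0.38 to 0.10.

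The electron transfer flavoprotein passes electrons from the dehydrogenases to ubiquinone. Its subunit Etfa had 10.91 in heme surface and 9.99 in control surface cells, and 9.78 in heme crypt and 9.70 in control crypt cells. Its subunit Etfb had 10.21 in heme surface and 9.32 in control surface cells, and 9.65 in heme crypt and 9.46 in control crypt cells. The heme surface value was the highest of the 4 for both subunits, and the differences of 0.92 and 0.88 fell just below 2-fold, which they passed with ribosomal protein genes centred (1.08 and 1.04). Etfdh, the oxidoreductase that accepts these electrons, differed by 0.65 in surface cells and 0.08 in crypt cells.

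Of 3 peroxisomal genes, Pex11a was higher in heme surface cells, beside 3.62% of all genes tested. Pex11a, a membrane protein that promotes division of peroxisomes, had 8.63 in heme surface and 7.13 in control surface cells, and 6.80 in heme crypt and 6.92 in control crypt cells. The heme surface value stood apart from the other 3, with a difference of 1.502 (2.83-fold) in surface and -0.12 in crypt cells. Ehhadh, the peroxisomal bifunctional enzyme, differed by 0.59 in surface cells and Acaa1a, a peroxisomal thiolase, by 0.23.

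Acyl-CoA thioesterases split acyl-CoA into the free acid and coenzyme A. Acot2, the mitochondrial enzyme, had 10.11 in heme surface and 7.14 in control surface cells, and 7.38 in heme crypt and 7.28 in control crypt cells. The control surface and the crypt arrays lay between 7.14 and 7.38 for Acot2, and the heme surface array stood apart by 2.96 from control surface cells (7.80-fold). Acot12, a cytosolic acetyl-CoA hydrolase, had 6.76 in heme surface cells and lay below the floor on the other 3 arrays, at 5.04 in control surface, 4.72 in heme crypt and 4.69 in control crypt cells. Its difference of 1.72 in surface cells therefore rests on a control value below the floor. Acot1, the cytosolic enzyme, lay below the floor in heme surface (5.01), control surface (4.21) and control crypt cells (5.27), and at 5.82 in heme crypt cells. Mouse Acot1 and Acot2 are closely similar in sequence, so their values may be shared through cross-hybridisation, which was not tested.

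Pdk4, a kinase that blocks pyruvate dehydrogenase and so spares glucose, had 9.95 in heme surface and 6.15 in control surface cells. In crypt cells it lay below the floor, at 5.28 on heme and 4.62 on the control diet. The surface difference of 3.80 (14.0-fold) was the largest of the set in surface cells. Vnn1, a pantetheinase of the cell surface, had 7.09 in heme surface cells and was below the floor in control surface (5.52), heme crypt (4.51) and control crypt cells (4.34), a surface difference of 1.57. Angptl4, a secreted inhibitor of lipoprotein lipase and a classical PPAR target, had 6.41 in heme surface and 5.71 in control surface cells, and 5.43 in heme crypt and 5.34 in control crypt cells. Its difference of 0.70 in surface cells did not reach 2-fold, and 3 of its 4 values were below the floor.

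The lipid droplet coat gene Plin3 had 9.56 in heme surface and 8.53 in control surface cells, and 8.45 in heme crypt and 8.27 in control crypt cells. Its surface difference of 1.04 was at the edge of 2-fold and was 0.98 both with cyclic loess and with 32 added to the unlogged values. Plin2, which coats droplets in most tissues and is a classical PPAR target, had 10.90 in heme surface and 10.36 in control surface cells, and 8.62 in heme crypt and 8.44 in control crypt cells. Plin2 was set apart by compartment more than by diet, with a heme difference of 0.54 in surface cells. Bdh1, the mitochondrial dehydrogenase of ketone bodies, had 8.82 in heme surface and 8.26 in control surface cells, and 8.996 in heme crypt and 8.49 in control crypt cells, with like differences of 0.56 and 0.51.

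The regulators moved in opposite directions. Creb3l3, a membrane-bound transcription factor that is induced by PPAR alpha in the liver and drives lipid genes, had 9.45 in heme surface and 6.34 in control surface cells, and was below the floor at 5.57 in heme crypt and 5.15 in control crypt cells. Its surface difference was 3.11 (8.63-fold). Ppargc1a, the coactivator that promotes mitochondrial gene expression, had 7.48 in heme surface and 8.88 in control surface cells, and 6.18 in heme crypt and 6.96 in control crypt cells. The heme arrays lay below the control arrays in both compartments, by -1.40 and -0.78, and Ppargc1a was the 1 gene of the set called lower in surface cells. Its 2 probe sets differed by -1.25 and -1.56 there, and its rank from the bottom of all genes tested was 76.

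In crypt cells, no gene of the set was higher or lower on heme. At or above the floor there were 36 genes, and 1.78% of all 10491 genes tested were higher and 1.19% lower. The median difference was 0.06, against 0.01 over all genes tested, and 22 of the 36 lay above 0. The differences that came nearest to 2-fold were those of Ppargc1a (-0.78), Slc25a20 (0.70), Cd36 (-0.63) and Cpt2 (0.61). Pdk4, Creb3l3, Acot12, Vnn1 and Angptl4 were below the floor on both crypt arrays, so these genes could not be called in crypt cells. Surface colonocyte markers also lay higher in the heme crypt pool, with 5 of 14 called higher and a median of 0.39, among them Aqp8, a water channel (2.55), and Car1, a carbonic anhydrase (1.70), both named after their values were seen. Of the 6 members at or above the floor whose heme difference in crypt cells was 0.51 to 0.70, Slc25a20, Cpt2 and Fabp2 were also called higher in surface cells, set against crypt cells, on both diets. The other 3 were not, with surface minus crypt differences on heme and on the control diet of 0.35 and -0.33 for Acsl4, -0.80 and -1.06 for Acot1, which was below the floor on both control arrays, and -0.17 and -0.22 for Bdh1. Stromal markers had 3 of 12 lower (median -0.72), and crypt base and progenitor markers 2 of 13 (median -0.31). Endothelial markers had 1 of 9 lower (median -0.62) and macrophage markers 1 of 8 (median -0.63). Epithelial markers in general had none called (median -0.21). The part of any of these marker sets in the crypt values was not tested.

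The heme difference of surface cells less the heme difference of crypt cells was called higher for 13 of 41 genes and lower for none, with 3.29% and 2.17% of 11147 genes as the background. The median of the set was 0.69, against -0.02 over all genes. Pdk4 led with 3.14, followed by Acot2 (2.87), Creb3l3 (2.69), Acot12 (1.69), Pex11a (1.63), Cd36 (1.54), Vnn1 (1.40), Acsl5 (1.35), Acadl (1.31) and Acaa2 (1.21). For Pdk4, Creb3l3, Acot12 and Vnn1 the crypt values lay below the floor, so the size is uncertain. Of the 35 genes at or above the floor on all 4 arrays, 9 were called higher, beside 2.41% of all genes under that floor. Slc27a4, Hadhb and Ech1 lay at 1.00 to 1.01 and dropped below 2-fold with ribosomal protein genes centred (0.97, 0.96 and 0.97). Slc25a20 (0.02), Fabp1 (-0.04) and Bdh1 (0.05) had nearly equal differences in both compartments.

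**Figure D3:**
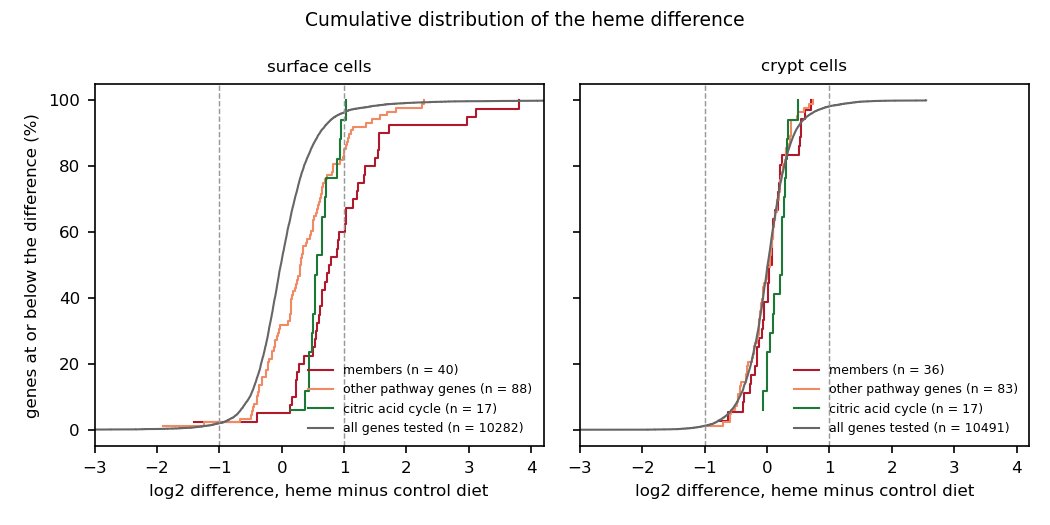
Cumulative share of genes (vertical, in percent) at or below each log2 difference between heme and control diet (horizontal), in surface cells and in crypt cells, for the set, other pathway genes, citric acid cycle genes and all genes tested, with 2-fold marked by dashed lines. In surface cells the curve of the set lies to the right of that of all genes, with medians of 0.77 and -0.02, and in crypt cells the medians are 0.06 and 0.01.

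The set also differed along the crypt axis. On the heme diet, 24 of 41 genes were higher in surface cells relative to crypt cells and none was lower, and 15.3% of all genes tested were higher and 16.5% lower. On the control diet, 9 of 37 genes were higher and none was lower, and 12% of all genes tested were higher and 13.5% lower. The median of the set was 1.17 on heme and 0.35 on the control diet, each against -0.05 over all genes tested. Of the 41 genes, 6 reached the floor on the heme diet on 1 array alone, and 20 of the other 35 were higher. On the control diet 7 of the 35 genes at or above the floor on both arrays were higher. Over all genes at or above the floor on both arrays, 14.9% were higher on heme and 11.4% on the control diet. These comparisons share arrays with the heme comparisons and are given as values beside them.

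Slc25a20 had nearly the same step from crypt to surface on heme (3.32) and on the control diet (3.30). Fabp2 was higher in surface cells by 2.98 on heme and 2.20 on the control diet, Plin2 by 2.28 and 1.91, and Ppargc1a by 1.30 and 1.92. Pdk4, Slc27a4, Cpt2 and Creb3l3 were the other genes higher in surface cells on both diets by at least 2-fold. Pdk4 differed by 4.67 on heme and 1.53 on the control diet, and Creb3l3 by 3.88 and 1.19, with crypt values below the floor. Fabp1 was higher by 1.03 on the control diet and by 0.99 on heme.

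For other genes the step lay on the heme diet. Acot2 differed between surface and crypt cells by 2.73 on heme and -0.13 on the control diet, Pex11a by 1.83 and 0.21, Hadha by 1.34 and 0.35, and Hadhb by 1.31 and 0.31. Acsl5 differed by 0.91 and -0.44, and Acaa2 by 0.73 and -0.48. Eci1 had lower values in surface cells on both diets (-0.40 and -0.68). Ribosomal protein genes were themselves lower in surface cells, and centring on them moved the median of all genes to 1.06 on heme and 1.10 on the control diet. With this centring 38 of 41 genes of the set were higher on heme and 29 of 37 on the control diet. Over all genes tested, 53.1% and 55.4% were then higher too. The negative differences of Acot2, Acsl5, Acaa2 and Eci1 turned positive. The gap between the median of the set and that of all genes, which centring cannot change, was 1.22 on heme and 0.40 on the control diet, and with cyclic loess it was 1.14 and 0.44.

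**Figure D4:**
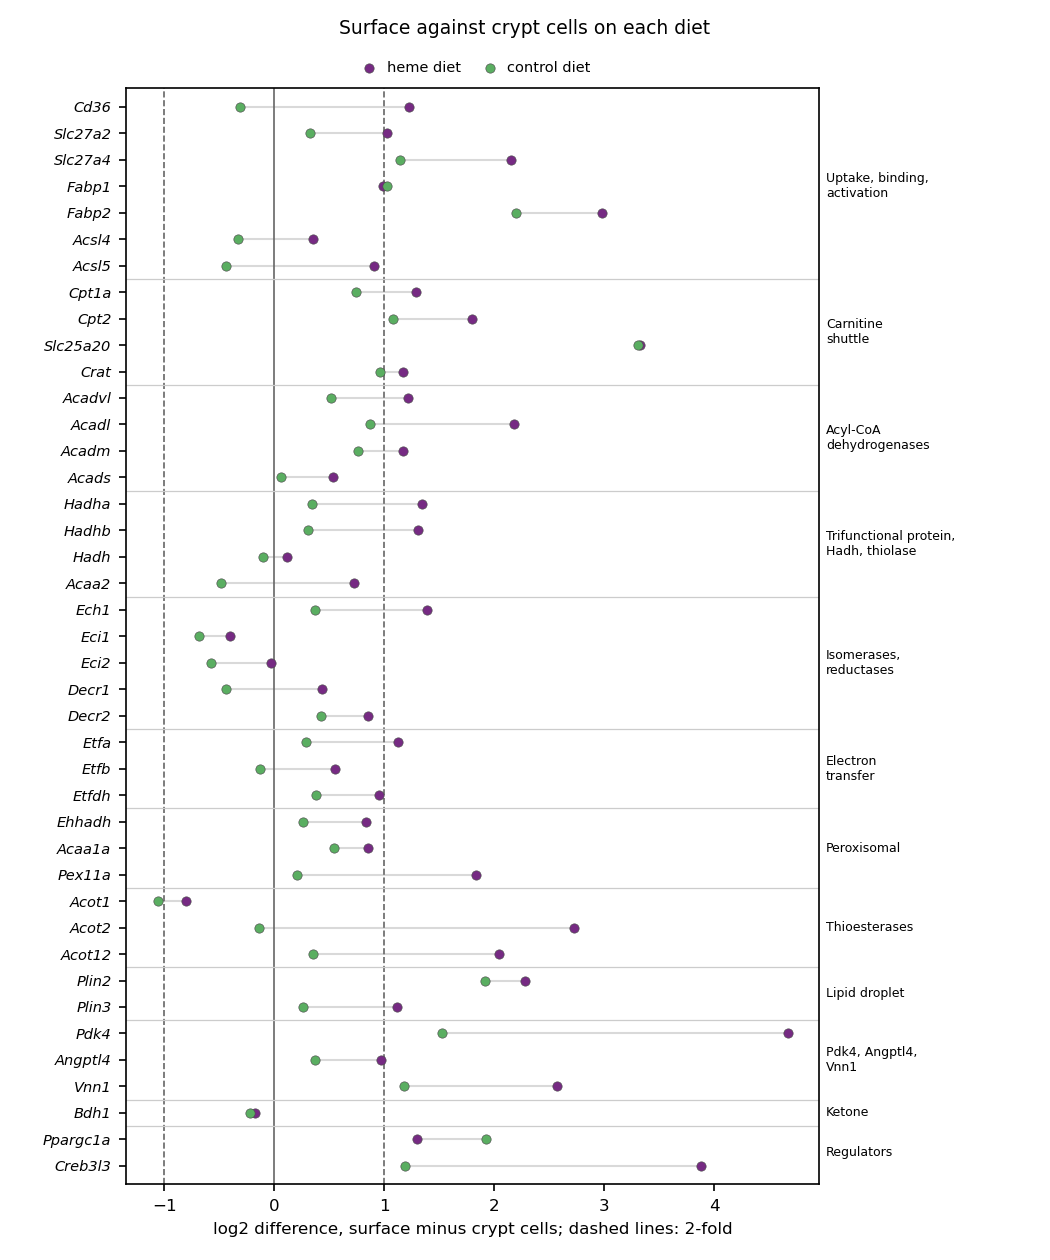
Log2 difference between surface and crypt cells for each measured gene (rows, grouped by role) on the heme diet and on the control diet, 1 difference of arrays per point, with 2-fold marked by dashed lines. On heme 24 of 41 genes lie at or beyond 1, and Slc25a20 lies at 3.32 on heme and 3.30 on the control diet.

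Other genes of the same pathways, on 7 lists with 131 genes, were compared in the same way. In surface cells 14 of 88 genes at or above the floor were higher on heme and 2 were lower, with a median of 0.30. Over all genes tested, 3.62% were higher and 2.01% lower, with a median of -0.02. The list of other peroxisomal and omega-oxidation genes had the most calls, with 6 of 16 higher and none lower. Acox2, an oxidase of branched acyl-CoA, differed by 2.28, with a control value of 4.98 below the floor. Acot4, a peroxisomal thioesterase, differed by 2.25, Cat, the peroxisomal catalase, by 1.44, and Abcd3, a peroxisomal acyl-CoA transporter, by 1.15. Acaa1b, a thiolase close in sequence to Acaa1a, differed by 0.82. Cyp4a10, an omega-hydroxylase and a strong PPAR alpha target in liver, was below the floor on all arrays (4.41 in heme surface, 4.87 in control surface, 4.05 in heme crypt and 4.07 in control crypt cells).

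**Figure D5:**
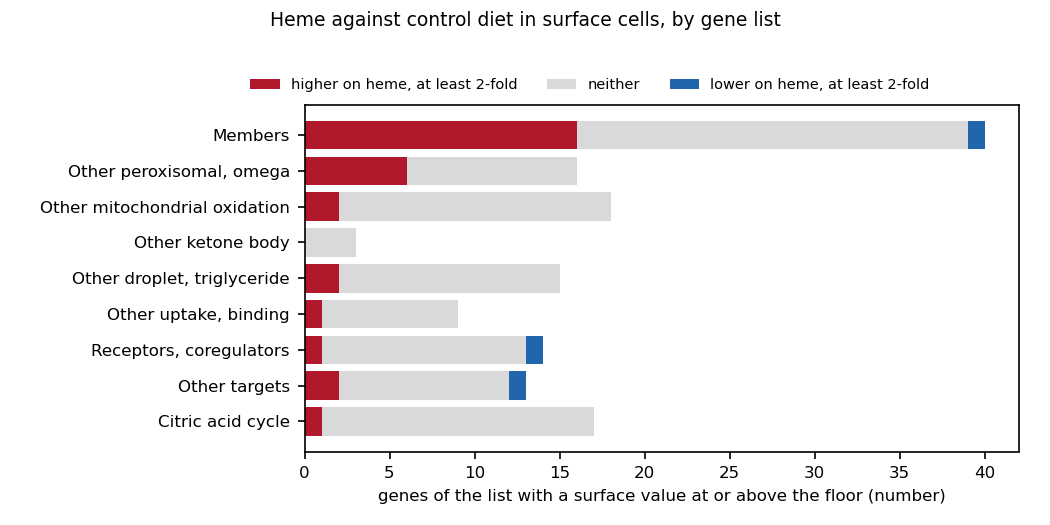
Number of genes per list (horizontal) that were at least 2-fold higher, neither, or at least 2-fold lower on heme than on the control diet in surface cells, among genes at or above the floor on at least 1 surface array. The set (top bar) has 16 higher and 1 lower of 40. The list of other peroxisomal and omega-oxidation genes has 6 higher of 16. Over all genes tested, 3.62% were higher and 2.01% lower.

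On the list named other mitochondrial oxidation, 2 of 18 genes were higher in heme surface cells, beside 3.62% of all genes tested. They were Pcca, a subunit of propionyl-CoA carboxylase (1.06), and Hsdl2 (1.00). Where the proteins of this list are located was not examined. Among other droplet and triglyceride genes, 2 of 15 were higher, namely Cidec, which enlarges lipid droplets (1.83), and Hilpda, an inhibitor of triglyceride lipase (1.36). Cidec is also an adipocyte marker, while Adipoq, the adipokine gene, was below the floor on all arrays (4.11 in heme surface, 3.48 in control surface, 3.29 in heme crypt and 3.39 in control crypt cells), as was Plin1 (5.39, 5.32, 4.96 and 4.83 in the same order). Fabp4, expressed in adipocytes and capillary endothelium, had 7.51 in heme surface and 6.95 in control surface cells, and 5.90 in heme crypt and 6.04 in control crypt cells. Of 8 adipocyte markers measured, 3 reached the floor in heme surface and 2 in control surface cells.

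Citric acid cycle genes burn the acetyl-CoA that beta-oxidation releases. In heme surface cells 1 of 17 was higher, beside 3.62% of all genes tested. All 17 lay above 0, with a median of 0.57, beside 48.5% of all genes tested above 0. The 1 gene called higher was Suclg2, a subunit of succinyl-CoA ligase (1.03). In crypt cells their median was 0.23. The median of the fatty acid oxidation set was thus 0.77 in surface cells beside 0.57 for the citric acid cycle, and the 2 were 0.06 and 0.23 in crypt cells.

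Transcripts of the receptors themselves showed smaller differences. Ppara had 6.28 in heme surface and 6.95 in control surface cells, and 6.08 in heme crypt and 6.42 in control crypt cells, with differences of -0.67 and -0.34. Ppard had 9.46 in heme surface and 9.68 in control surface cells (-0.21), and Pparg 9.47 and 9.35 in the same order (0.13). In crypt cells Ppard differed by -0.00489 and Pparg by 0.24. None of the 3 PPAR genes reached 2-fold. Of 14 receptor and coregulator genes at or above the floor, Lpin2, a phosphatidate phosphatase, was higher in heme surface cells (1.58) and Hnf4g, a nuclear receptor of the intestine, was lower (-1.91). Among other targets, Pdk3, another pyruvate dehydrogenase kinase, was higher (1.68), as was the gluconeogenic gene Pck1 (1.08), and Pdp2, the phosphatase that opposes these kinases, was lower (-1.24). In crypt cells Pck1 was lower (-1.03), the 1 gene called among 83 of the 7 lists. Over all genes tested, 3.62% were higher and 2.01% lower on heme in surface cells, and 1.78% and 1.19% in crypt cells.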

How the data were processed

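Each probe set of a whole-transcript Affymetrix array has a deposited log2 value, made by the authors with RMA per the submitters' processing notes, which corrects background, normalizes by quantiles and summarises probes. Its version, and which arrays were normalized jointly, are not stated in these sources. Of 35556 probe sets, 21789 had 1 gene symbol, 1621 several and 12146 none in the platform annotation. Symbols were updated by gene identifier to the GRCm38.p6 gene table (21698 matched), and probe sets of a gene were averaged; 39 of the 41 measured members had 1 probe set and 2 had a pair. With 1 array per group, the number of arrays limits the precision. Differences of log2 values were computed for 5 comparisons over all genes. Members, lists, rules and motifs were chosen with earlier results of these data known. All members could be named, and from other lists up to 4 called genes per comparison plus 10 set names; other names were chosen after their values were seen. The size rule was run on simulated data with planted changes larger than 2-fold, an assumed noise and genes above the floor. That run cannot speak for calls near 2-fold or near the floor, or for the real spread between pools. Tools were Python 3.11.15, numpy 2.4.6, pandas 2.3.3, matplotlib 3.10.9, R 4.3.3 and limma 3.58.1 (cyclic loess). Alternatives were the floor, 32 added to the unlogged values, 3 scalings, the probe set summary and the threshold.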

Additional observations from a re-analysis of the deposited data

Results flagged for a closer look

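In 4 genes of the set the heme difference had opposite signs in surface and crypt cells and these differences lay at least 1 apart on the log2 scale. The share of all genes that meet this rule was not computed. They were Pex11a, with 1.502 in surface and -0.12 in crypt cells (1.63 apart), Cd36, with 0.91 and -0.63 (1.54 apart), Acaa2, with 1.14 and -0.07 (1.21 apart), and Ech1, with 0.76 and -0.25 (1.01 apart). The crypt differences of Pex11a and Acaa2 are near 0. Each rests on 1 pool per group, and the difference between the compartments was not tested.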

How the results depend on the processing

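No paired analysis was possible because each group holds 1 array and the labels carry no replicate numbers. In heme surface cells the members higher numbered 14 to 19 under the floor, scale, scaling and probe set alternatives, and 1 was lower in each. Over all genes tested, 1.97% to 5.15% were higher and 1.1% to 2.03% lower under these alternatives. With a 1.5-fold threshold 27 were higher, beside 10.5% of all genes tested. With a 3-fold threshold 4 were higher and 0 lower, beside 1.37% and 0.535%. In heme crypt cells none was called except at 1.5-fold, with 2 of 36 higher and 2 lower. That is near the share over all genes tested, 5.89% higher and 5.6% lower. For surface against crypt on heme, 38 were higher with ribosomal protein genes centred (median 2.28) and 12 at 3-fold, and 1 was lower at 1.5-fold. Over all genes tested these shares were 53.1%, 7.8% and 27.6%. On the control diet, 29 were higher with ribosomal protein genes centred (median 1.498). With 32 added to the unlogged values 4 were higher, and at 3-fold also 4. With no floor 1 was lower, and at 1.5-fold also 1. Over all genes tested these shares were 55.4%, 9.74% and 6.08% higher, and 7.74% and 25.2% lower. For the heme effect in surface minus crypt cells, 24 were higher and 1 lower at 1.5-fold, and 5 higher at 3-fold. Over all genes tested these shares were 10.1%, 8.18% and 1.08%. No called member changed sign under these alternatives. Over all genes, the surface split of 372 higher and 207 lower became 464 and 158 with all genes centred and 530 and 139 with ribosomal protein genes centred. The crypt split of 187 and 125 became 225 and 96, and 328 and 59. On heme, surface against crypt, 1637 and 1763 became 1966 and 1400, and 5681 and 355, and on the control diet 1301 and 1464 became 6023 and 157 with ribosomal protein genes centred. Apart from the thresholds and centring, the cause of these changes was not tested.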

Other observations

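Other droplet and triglyceride genes differed mainly by compartment. Of those at or above the floor, 8 of 15 were higher in surface cells, set against crypt cells, on heme and 9 of 13 on the control diet, and none was lower. Over all genes tested, 15.3% were higher on heme and 12% on the control diet. Apob, the structural protein of chylomicrons, differed by 3.33 on heme and 3.46 on the control diet. Cideb, a droplet protein that aids lipoprotein loading, differed by 3.38 and 3.03. Mgll, the monoglyceride lipase, differed by 3.25 and 2.49, and Dgat2, which completes triglyceride synthesis, by 2.77 and 2.62. With heme, these 4 genes differed in surface cells by -0.46 (Apob), 0.50 (Cideb), 0.81 (Mgll) and 0.26 (Dgat2). On the other side, 5 of 9 other uptake and activation genes were lower in surface cells on the control diet and 3 of 10 on heme, beside 13.5% and 16.5% of all genes tested. Acsm3, a medium-chain acyl-CoA synthetase, differed by -1.56 on heme and -2.49 on the control diet, and Acss2, the cytosolic acetyl-CoA synthetase, by -1.49 and -1.99.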
